A study of Mus musculus with 9 samples.

Results

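Bone morphogenetic protein (BMP) signalling was examined through 10 genes: the ligands Bmp2, Bmp4 and Bmp7, the extracellular regulators Bmper and Grem1, the membrane decoy Bambi, the inhibitory Smad6, and the targets Id1, Id2 and Id3. They were chosen by name, and each probe set that the platform annotation assigns to 1 of these symbols alone was taken, which gave 14 of the 45101 probe sets on the array. Each of the 10 genes had at least 1 probe set, and 8 of them had only 1. One Bmp7 probe set lay below the filter on dim signals, so 13 were tested.

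The samples were renal vesicles, the first epithelial bodies of the nephron, cut by laser capture from mouse kidneys at the stage E12.5. There were 5 samples from wild-type kidneys and 4 from Lim1 mutant kidneys, where Lim1 is the gene now named Lhx1, a LIM homeodomain factor of the early nephron. The labels call the samples biologically independent, with about 30 to 50 vesicles in each, and name no agent, strain, allele or further genetic change in either group. They do not say whether the mutation was in the whole embryo or in some cells only, nor how many embryos went into a sample.

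BMP ligands bind paired type I and type II receptor kinases, which phosphorylate Smad1, Smad5 and Smad9. These join Smad4 in the nucleus and switch on the Id genes and Smad6, and Smad6 in turn blocks the pathway. In the developing kidney, Bmp7 is known for keeping nephron progenitors alive, Bmp4 for restraining ureteric budding, and Grem1 for opposing Bmp4 so that branching can proceed. Signals of captured tissue are bulk values, so fewer cells of a type and less RNA per cell cannot be told apart.

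The mutated gene separated the groups at 1 of its 2 probe sets. At the dimmer one, Lhx1 signals were 2327 to 17587 on the wild-type arrays and 6.88 to 10.5 on the mutant arrays (log2 difference -6.64 ± 0.57, limma adjusted p = 0.00329). At the brighter one the ranges overlapped, at 1696 to 18555 and 4108 to 4951. All 8 listed renal vesicle markers were measured, and the summed signal of the list was 96374 to 201991 on the wild-type arrays and 101908 to 130473 on the mutant arrays. These 8 include the mutated gene Lhx1. At the brightest tested probe set of each, their median difference was -0.42, with 5 of them below 0, and none passed there. Among these 5 were the Notch ligands Dll1 (-1.33 ± 0.48, limma adjusted p = 0.696) and Jag1 (-0.52 ± 0.21, limma adjusted p = 0.73). Wnt4 (0.10 ± 0.39), Fgf8 (0.35 ± 0.55) and Cdh6 (0.14 ± 0.31) lay above 0. Wild-type array 3 carried the highest summed signals of the stroma (157975), endothelium (18716) and macrophage (23997) lists, against at most 52811, 14416 and 6025 on the other 8 arrays. Medians of all probe sets ran from 144 to 195 per array.

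None of the 13 tested probe sets passed the test after adjustment over all 27022 probe sets (adjusted p = 0.651 to 0.977), where 0.0333% of all probe sets passed. Unadjusted limma p values were under 0.05 at 4 of the 13, those of Bmper, Smad6, Bmp4 and Bambi, where 6.67% of all probe sets reached this. On the normalised log2 scale the groups overlapped at each of the 13, where 2.25% of all probe sets had no overlap. The fitted difference, mutant minus wild type, was above 0 at all 13 probe sets, and above 0 at the leading probe set (the brightest tested one) of all 10 genes, where 56.5% of 13226 genes and 52.7% of probe sets lay above 0. The median difference of the 10 genes was 0.51 on the log2 scale, beside 0.07 over all genes tested. All 13 also lay above 0 without normalisation between arrays and with median centring. These are counts over genes of 1 pathway on the same arrays, not independent replicates, and the members were chosen with earlier results of these data known.

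**Figure D1:**
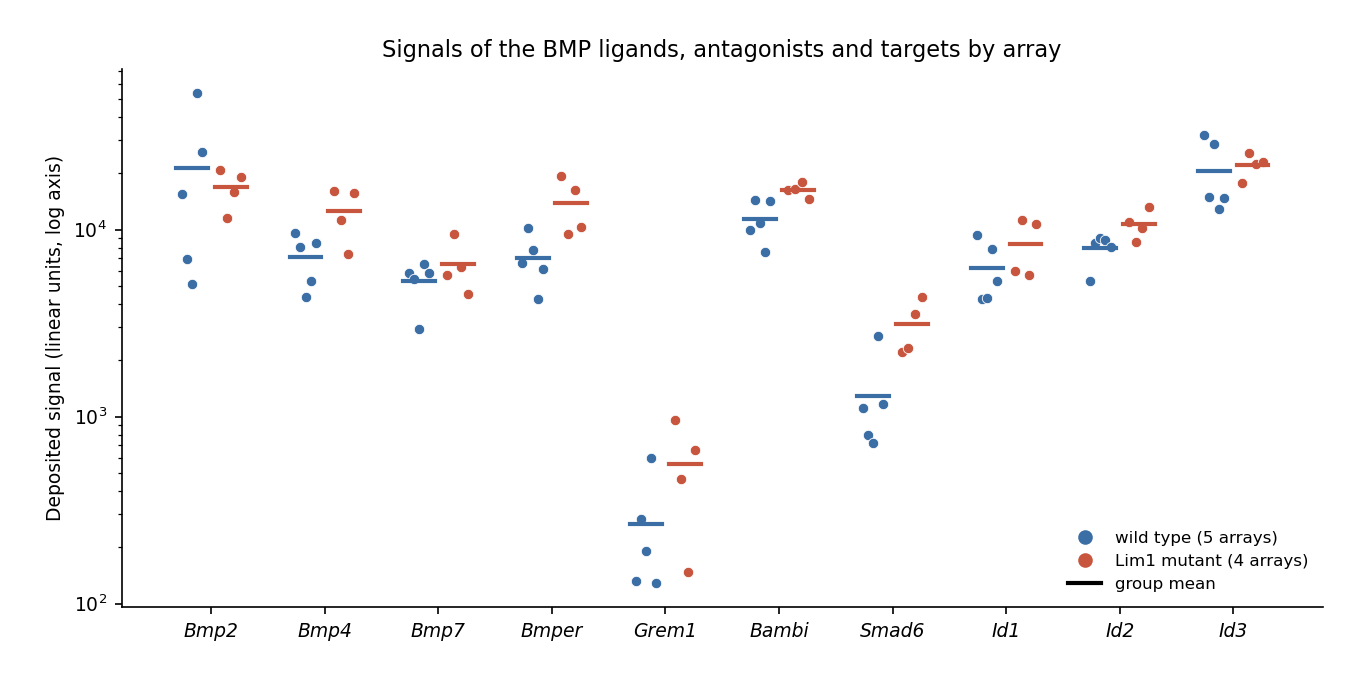
Deposited signal (log axis) of the leading probe set of each of the 10 genes on each array, with wild-type arrays in blue, mutant arrays in red and group means as bars. Mutant points lie high within or above the wild-type points for Bmper, Bambi and Smad6, while Bmp2 and Id3 mutant points lie inside the wild-type range. Heights can be compared within a gene only.

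Of the ligands, Bmp4 stood higher on most mutant arrays, Bmp7 differed by less than its spread between arrays, and Bmp2 varied too much in the wild type to be placed. Bmp4 signals were 9608, 8017, 4351, 5311 and 8462 on wild-type arrays 1 to 5, and 16164, 11257, 7387 and 15667 on mutant arrays 1 to 4. Mutant arrays 1, 2 and 4 lay above every wild-type array, and mutant array 3 lay among them. Group means were 7150 ± 2221 (SD, n = 5) and 12619 ± 4127 (n = 4), and the fitted log2 difference was 0.85 ± 0.32, a 1.80-fold ratio with a 95% interval of 0.15 to 1.55 on the log2 scale. It did not pass (limma adjusted p = 0.715, exact permutation p = 0.0556, two-sided). Wild-type array 3, with the highest summed stroma signal, had the lowest Bmp4 signal of the 9.

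Bmp2, a ligand best known from bone and heart, was spread over 10.5-fold within the wild type. Its signals were 15537, 6933, 5091, 53401 and 26104 on wild-type arrays 1 to 5 and 20750, 11464, 15856 and 19105 on mutant arrays 1 to 4. The mutants thus spanned 1.81-fold and lay wholly inside the wild-type range. Group means were 21413 ± 19722 and 16794 ± 4094, lower in the mutants, while the log2 difference was 0.17 ± 0.59 (95% interval -1.12 to 1.46, limma adjusted p = 0.977, exact permutation p = 0.857). The direction thus depended on the scale, and it also turned without wild-type array 2 (-0.12), without wild-type array 3 (-0.21) and without wild-type arrays 1 and 3 together (-0.32). Wild-type array 4, the highest for Bmp2, had the second highest summed endothelial signal, and wild-type array 3, the lowest, had the highest. The summed renal vesicle signal was 201991, 101702, 96374, 200812 and 182344 on wild-type arrays 1 to 5. Within the wild type it was lowest on arrays 3 and 2, as was Bmp2. On the mutant arrays it was 101908 to 130473. The part of vessel cells or renal vesicle cells in the Bmp2 values was not tested.

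Bmp7 was read by 3 probe sets. At the brightest the signals were 5884, 5444, 2924, 6550 and 5830 on wild-type arrays 1 to 5 and 5743, 9449, 6339 and 4503 on mutant arrays 1 to 4 (log2 difference 0.29 ± 0.32, adjusted p = 0.907, limma; exact permutation p = 0.429). At the second the wild-type arrays read 1909 to 2455 and the mutants 1886, 4257, 2257 and 2142 (0.26 ± 0.34, adjusted p = 0.927). Mutant array 2 was the highest of the 9 arrays at both, and without it the second probe set gave a difference of -0.0064. The third read 6.40 to 119 on wild-type arrays and 4.67 to 76.8 on mutant arrays, below the filter. The 95% interval at the brightest probe set was -0.40 to 0.98. The difference there was 0.45 ± 0.34 without mutant array 4, 0.09 without wild-type array 3 and 0.10 without mutant array 2.

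Outside the cell, Bmper had the lowest unadjusted p of the 10 genes, and Grem1 was dim and scattered. Bmper encodes a secreted BMP-binding protein with chordin-like cysteine-rich repeats that can restrain or aid BMP signalling. Its signals were 6642, 10238, 7757, 4252 and 6158 on wild-type arrays 1 to 5 and 19420, 9484, 16358 and 10374 on mutant arrays 1 to 4. Only mutant array 2 lay below the highest wild-type array, and all 4 mutants lay above the wild-type median. Means were 7009 ± 2205 (n = 5) and 13909 ± 4777 (n = 4), and the log2 difference was 0.997 ± 0.310, a 2.0-fold ratio with a 95% interval of 0.32 to 1.68. It did not pass (unadjusted p = 0.0079 and adjusted p = 0.651 in limma, exact permutation p = 0.0238).

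Grem1, the secreted antagonist of Bmp2, Bmp4 and Bmp7, had wild-type signals of 133, 283, 191, 598 and 129. The mutants read 959, 463, 148 and 659. Mutant arrays 1 and 4 exceeded each wild-type array, and mutant array 3 lay near the lowest of them. The log2 difference was 0.88 ± 0.55 with a 95% interval of -0.33 to 2.08 (limma adjusted p = 0.819, exact permutation p = 0.135). It was 0.58 without mutant array 1 and 1.31 without mutant array 3. Its single probe set was dim, and the log2 scale with its added constant understates the changes of such a probe set.

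The inhibitors that act at or behind the receptor were both higher on the mutant arrays, without passing the test. Bambi encodes a transmembrane protein that resembles a type I receptor without the kinase domain and so acts as a decoy. Its signals were 9984, 14457, 10782, 7568 and 14215 on wild-type arrays 1 to 5 and 16329, 16386, 18014 and 14579 on mutant arrays 1 to 4. As deposited, all 4 mutants lay above all 5 wild-type arrays, by a narrow gap between mutant array 4 and wild-type array 2; after quantile normalisation that pair changed order. The mutant values were close together, spanning 1.24-fold against 1.91-fold in the wild type. The log2 difference was 0.56 ± 0.22, a 1.47-fold ratio with a 95% interval of 0.08 to 1.04 (unadjusted p = 0.0264 and adjusted p = 0.722 in limma, exact permutation p = 0.0397).

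Smad6 had the largest fitted difference among the 10 leading probe sets. Its signals were 1105, 793, 722, 2682 and 1160 on wild-type arrays 1 to 5 and 2217, 2314, 3545 and 4362 on mutant arrays 1 to 4. Each mutant array exceeded 4 of the 5 wild-type arrays, and wild-type array 4 lay between the lower and the higher mutants. Means were 1292 ± 800 (n = 5) and 3109 ± 1031 (n = 4). The log2 difference was 1.31 ± 0.44, a 2.48-fold ratio with a 95% interval of 0.34 to 2.28 (unadjusted p = 0.0125 and adjusted p = 0.683 in limma, exact permutation p = 0.0317). Endothelium is a known site of Smad6 expression, and the summed endothelial signal, over all 10 markers of that list, was 4412 to 18716 on the wild-type arrays and 3770 to 5420 on the mutant arrays. At their leading probe sets, its 8 tested markers all had differences below 0 and none passed. By array the sum was 4412, 5618, 18716, 14416 and 4680 on wild-type arrays 1 to 5. Wild-type array 4, the highest of the wild type for Smad6, had the second highest sum. Wild-type array 3, with the lowest deposited Smad6 signal, had the highest sum. No marker on the endothelial list was at 0, and the part of endothelium in the Smad6 values was not tested.

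**Figure D2:**
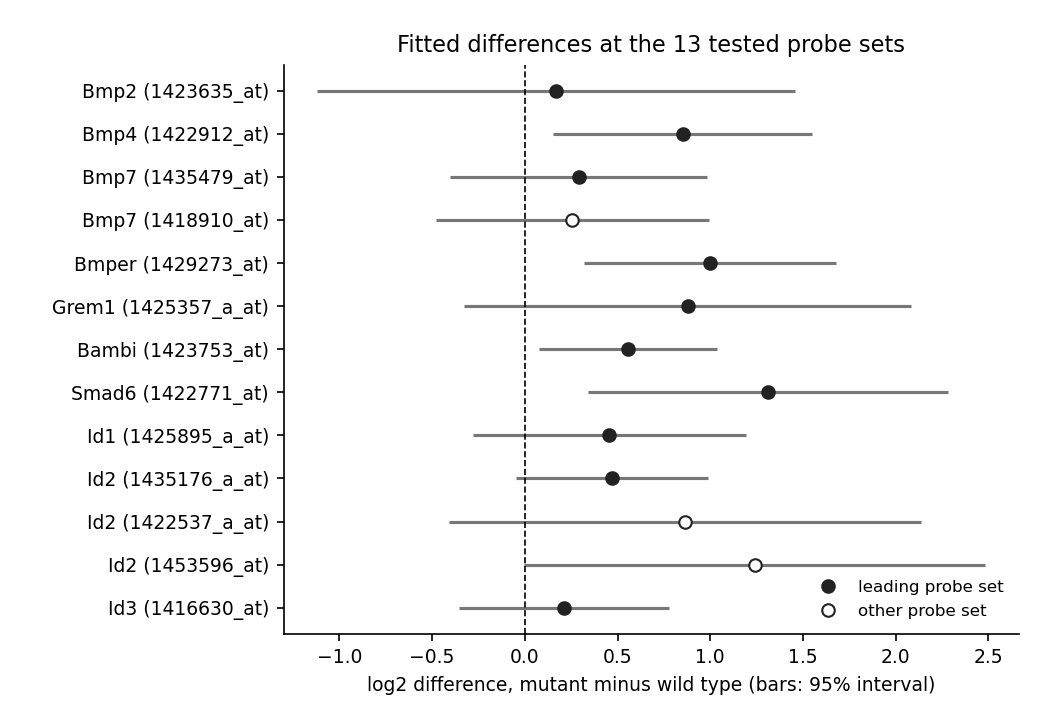
Fitted log2 difference, mutant minus wild type, at the 13 tested probe sets, with 95% intervals as bars; filled points are the leading probe set of a gene and open points its other probe sets. All points lie to the right of 0, and among the leading probe sets the intervals of Bmp4, Bmper, Bambi and Smad6 exclude 0 before adjustment for the number of probe sets tested.

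The Id genes, which encode helix-loop-helix proteins without a DNA-binding region and hold back basic helix-loop-helix factors, are the classical readout of BMP receptor activity. None of them passed. Id2 differed most evenly: at its leading probe set the signals were 5312, 8508, 8960, 8828 and 8056 on wild-type arrays 1 to 5 and 10984, 8543, 10140 and 13251 on mutant arrays 1 to 4. Mutant arrays 1, 3 and 4 exceeded every wild-type array, and mutant array 2 lay inside the wild-type range. The log2 difference was 0.47 ± 0.24, a 1.39-fold ratio with a 95% interval of -0.05 to 0.99 (limma adjusted p = 0.785, exact permutation p = 0.0476).

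The other 2 probe sets of Id2 were dim but pointed the same way. One read 49.7 to 535 on wild-type arrays and 437 to 1007 on mutant arrays (0.86 ± 0.58, limma adjusted p = 0.831). The other read 38.9 to 236 on wild-type arrays, and 1175, 241, 231 and 169 on mutant arrays 1 to 4 (1.24 ± 0.57, limma adjusted p = 0.748). Mutant array 1 stood far above the rest at the latter, and mutant array 4 at the former. Each difference depended on single arrays. The former was 0.43 without wild-type array 1, which read 49.7 against 285 to 535. It was 0.61 without mutant array 4 and 1.11 without wild-type array 5. The latter was 0.70 without mutant array 1 and 1.53 without mutant array 4.

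Id1 signals were 9364, 4270, 4326, 7827 and 5277 on wild-type arrays 1 to 5 and 5974, 11267, 5680 and 10671 on mutant arrays 1 to 4. Mutant arrays 2 and 4 exceeded each wild-type array, while mutant arrays 1 and 3 lay in the middle of them. The log2 difference was 0.46 ± 0.34 (95% interval -0.28 to 1.19, limma adjusted p = 0.854, exact permutation p = 0.23). It was 0.30 without mutant array 2. Within the wild type, array 1 was the highest for both Id1 and Id3, and within the mutants array 2 was the highest for both.

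Id3 was read as 32204, 14843, 28645, 12814 and 14716 on wild-type arrays 1 to 5 and as 17792, 25578, 22385 and 22895 on mutant arrays 1 to 4. The mutants lay between a high pair of wild-type arrays, 1 and 3, and the lower 3. The log2 difference was 0.21 ± 0.26 (95% interval -0.36 to 0.78, limma adjusted p = 0.921, exact permutation p = 0.468). Its size depended on which wild-type arrays were kept: it was 0.60 ± 0.17 without arrays 1 and 3 (limma adjusted p = 0.545), the arrays least like the others over all probe sets. It was 0.36 without array 1 and 0.35 without array 3. With array 4 left out it was 0.08 and with array 5 left out 0.11.

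Upstream sequence is shown for Smad6, Id2 and Id3, the members on which the pathway acts through Smad proteins and for which promoter sequence was at hand. Each is the 250 bases before the annotated start in RefSeq (GRCm38.p6), 5′ to 3′ along the gene, and for Smad6 the last bases fall inside a longer annotated transcript model. Capitals mark GGCGCC, the GC-rich element read by Smad1 and Smad5, and GTCT, the Smad4 element, which appears as AGAC where it lies on the other strand.
Smad6, chr9:64022060-64022309, minus strand: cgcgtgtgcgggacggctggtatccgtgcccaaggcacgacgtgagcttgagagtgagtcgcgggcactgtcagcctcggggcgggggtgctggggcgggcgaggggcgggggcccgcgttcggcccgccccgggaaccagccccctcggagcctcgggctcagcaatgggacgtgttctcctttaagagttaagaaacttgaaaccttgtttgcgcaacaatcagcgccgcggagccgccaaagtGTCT
Id2, chr12:25096093-25096342, minus strand: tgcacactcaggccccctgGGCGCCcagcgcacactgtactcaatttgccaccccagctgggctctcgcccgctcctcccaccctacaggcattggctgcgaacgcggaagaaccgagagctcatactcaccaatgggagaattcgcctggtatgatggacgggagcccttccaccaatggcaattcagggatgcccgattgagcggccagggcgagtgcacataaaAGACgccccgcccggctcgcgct
Id3, chr4:136143572-136143821, plus strand: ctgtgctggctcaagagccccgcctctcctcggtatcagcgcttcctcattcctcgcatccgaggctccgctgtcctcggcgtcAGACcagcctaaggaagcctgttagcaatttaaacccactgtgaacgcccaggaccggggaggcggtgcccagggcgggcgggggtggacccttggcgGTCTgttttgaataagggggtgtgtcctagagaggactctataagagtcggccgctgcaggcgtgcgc
Id2 held 1 GGCGCC and 1 GTCT match, Id3 held 2 GTCT matches and Smad6 held 1. GGCGCC, which reads the same on both strands, occurred in 9.59% and GTCT, searched on both strands, in 82.9% of 32851 mouse promoter windows of the same length, and the 2 motifs cannot overlap. The composite of GGCGNC, 5 bases and GTCT occurred in 0.192% of windows and in none of these 3. A match describes letters in this window only. Of the other members, Grem1, Bmper and Bmp4 also had a sequence in the table. The GC content of the 3 windows shown was 66.8% for Smad6 and 62.8% for both Id2 and Id3, above the median of 52.4% over all windows.

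Across the arrays, the 10 genes did not move as one block. Mutant array 4 lay above the 9-array mean for 9 of the 10 genes, mutant arrays 1 and 2 for 8 and mutant array 3 for 6. Among wild-type arrays the count was 6 on array 4, 4 on array 1, 3 on array 5 and 2 on each of arrays 2 and 3. The highest log2 level of a gene fell on a mutant array for 8 of 10 genes, the exceptions being Bmp2 and Id3. The lowest fell on a wild-type array for all 10. These counts by array were not made over all genes, and they are not separate from the differences above 0 at all 10. Which mutant array led differed by gene: array 1 for Bmp4, Bmper and Grem1, array 2 for Bmp7 and Id1, array 3 for Bambi, and array 4 for Smad6 and Id2. Wild-type array 3 was the lowest of the 9 for all 3 ligands, with log2 deviations of -1.60 for Bmp2, -1.02 for Bmp4 and -0.94 for Bmp7. Wild-type array 4 paired the highest Bmp2 level of the 9 (1.77 above the mean) with the lowest Bmper, Bambi and Id3 levels (-1.08, -0.78 and -0.60).

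**Figure D3:**
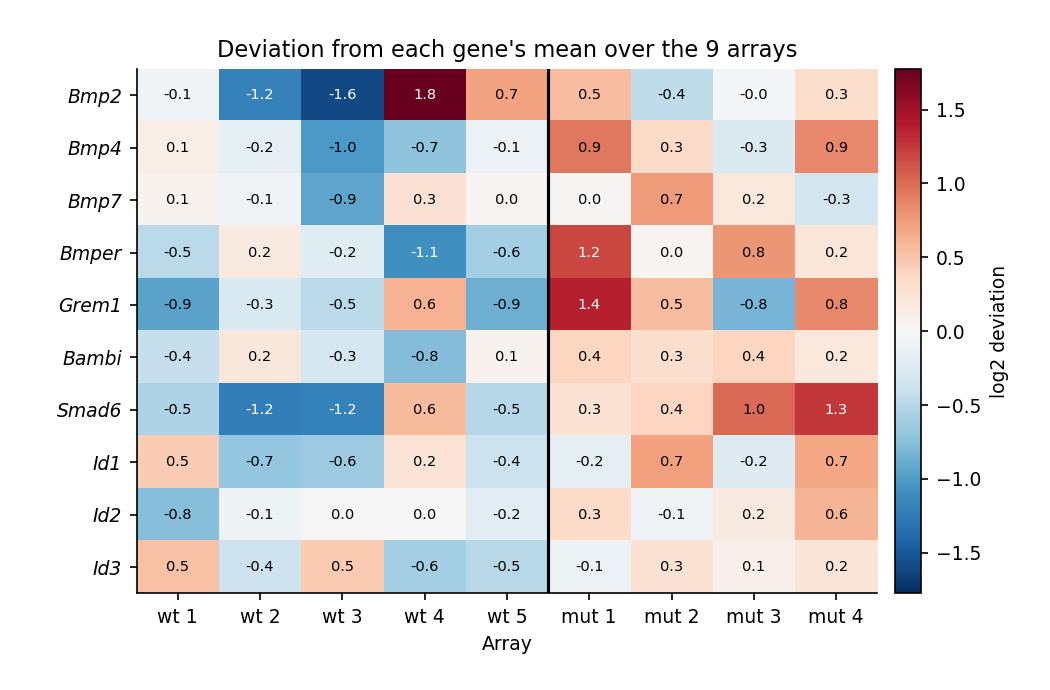
Log2 deviation of each of the 10 genes (rows, leading probe set) from its own mean over the 9 arrays (columns), red above and blue below; the black line separates the 5 wild-type from the 4 mutant arrays. Blue prevails on wild-type arrays 2 and 3 and red on mutant arrays 1, 2 and 4, while wild-type array 4 mixes the strongest red (Bmp2, 1.77) with a deep blue (Bmper, -1.08).

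Markers of other cell types the capture could hold were read on the same arrays. Stroma, a source of Bmp4 in the kidney, had a summed signal over 10 markers of 19696 to 157975 on wild-type arrays and 17608 to 51435 on mutant arrays. Of these 10 markers 4 had differences above 0 and 6 below. The cap mesenchyme list, the progenitors that express Bmp7, had summed signals over 7 markers of 10596 to 25390 and 11908 to 21837, with 3 of 6 tested markers above 0 and 3 below. The ureteric bud list, over 9 markers, had 6319 to 63520 and 5397 to 13682, and 6 of its 7 tested markers lay below 0, with a median of -0.52. The macrophage list, over 8 markers, had 1228 to 23997 and 2988 to 6025, with 6 of 8 above 0 and 2 below, and the erythroid list had 1 of 3 tested markers above 0 and 2 below.

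Single markers in these lists stood apart where the sums did not. Meox1, a cap mesenchyme homeobox gene, read 61.4 to 879 on the wild-type arrays and 934 to 2729 on the mutant arrays, without overlap (2.18 ± 0.71, unadjusted p = 0.0105 in limma). Six2, which maintains nephron progenitors, read 858 to 1154 and 1134, 3006, 2464 and 1467, so that 3 of the 4 mutants exceeded every wild-type array (0.88 ± 0.40, unadjusted p = 0.0511 in limma). Meis1, a homeobox gene of the stroma list, read 2895 to 4755 and 6182 to 7848, also without overlap (0.85 ± 0.25, unadjusted p = 0.00624 in limma). The differences of these 3 had the same sign as those of Bmper, Bmp4, Bambi and Smad6. Other markers of the same lists had the opposite sign, among them Osr1 of the cap mesenchyme (-1.26 ± 0.63) and Pdgfra of the stroma (-1.61 ± 0.90). Below 0 were 3 of the 6 tested cap mesenchyme markers and 6 of the 10 stroma markers. In the ureteric bud list, Ret had a difference of -2.43 ± 1.26 and Calb1 of -2.21 ± 1.15. Wnt11, the 1 marker above 0 of the 7 tested in that list, had 0.77 ± 0.49. Gata3, below the filter, read 4.44 to 10.7 on the mutant arrays, below every wild-type array. Wild-type arrays 1 to 3 read 471 to 2141, while wild-type arrays 4 and 5 were also dim, at 25.8 or less. No marker tested in these lists passed after adjustment at its leading probe set. None was at 0, and the summed ranges of the groups overlapped in each list. The part of these cells in the BMP values was not tested.

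Beyond the 10 genes, the rest of the pathway was counted from lists of 57 genes, of which 52 were on the array and 37 had a tested probe set. None passed after adjustment at its leading probe set. Of the 37, 26 (beside 56.5% of all genes) had differences above 0 and 11 below, with a median of 0.20; with median centring 22 of 36 lay above 0. An unadjusted limma p under 0.05 was reached by 5 of the 37, beside 6.67% of all probe sets, and 5 of the 37 had no overlap on the log2 scale, beside 2.25%. These shares cover all tested probe sets, dimmer ones of a gene included, while the 37 are leading probe sets. Shares over leading probe sets were not computed for these measures, so the comparison is rough.

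Among other ligands, 3 of the 8 on the array were bright enough to test and all 3 lay above 0. Bmp5 read 837 ± 698 among wild-type arrays and 1334 ± 823 among mutant arrays (0.82 ± 0.68, limma adjusted p = 0.868). Gdf2, known as BMP9 and made mainly by the liver, was dim, at 113 ± 107 and 205 ± 96.1 (0.72 ± 0.50, limma adjusted p = 0.843). The third was Bmp6.

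All 10 receptors and co-receptors were tested, 7 above 0 and 3 below, with a median of 0.27. Acvr1, a type I receptor for BMP ligands, read 4333 ± 2444 and 6832 ± 2299 (0.79 ± 0.41, limma adjusted p = 0.786), and its other 2 probe sets disagreed at 0.30 and -0.40. Eng, the endothelial co-receptor endoglin, read 465 ± 160 and 329 ± 89.3 (-0.52 ± 0.42, limma adjusted p = 0.868).

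Among secreted antagonists and modulators, Chrdl2 and Fst were higher and Fstl1 lower on the mutant arrays, without passing the test. Of 12 tested, 8 were above 0 and 4 below, with a median of 0.05. Chrdl2, a chordin-like antagonist, read 13.4, 186, 174, 130 and 167 on wild-type arrays 1 to 5 and 683, 1850, 607 and 666 on mutant arrays 1 to 4, without overlap. Its log2 difference was 2.41 ± 0.57 with a 95% interval of 1.16 to 3.66 (unadjusted p = 0.00133 and adjusted p = 0.402 in limma, exact permutation p = 0.00794, the smallest the 126 splits can give). The wild-type level was low on this array, and no other Chrdl2 probe set was tested.

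Fstl1, a secreted follistatin-like glycoprotein that binds BMP4, pointed the other way. Wild-type arrays read 44570 ± 10776 and mutant arrays 29120 ± 4746 at its leading probe set (-0.58 ± 0.18, limma adjusted p = 0.647). The groups overlapped there in the deposited signals but not after normalisation. At its other probe set the signals were 28615, 24747, 36618, 34712 and 20560 on wild-type arrays 1 to 5 and 17986, 7120, 5892 and 12430 on mutant arrays 1 to 4, without overlap (-1.48 ± 0.33, limma adjusted p = 0.345, exact permutation p = 0.00794). Fstl1 is also strongly expressed by stroma, whose summed marker signal was 19696 to 157975 on wild-type and 17608 to 51435 on mutant arrays; its part here was not tested.

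Fst, the activin and BMP antagonist follistatin, is named here after its values were seen. The leading probe set read 2837, 798, 85.8, 965 and 1577 on wild-type arrays 1 to 5 and 3726, 3783, 3085 and 4464 on mutant arrays 1 to 4, without overlap (2.15 ± 0.74, limma adjusted p = 0.696). Its other probe set overlapped widely, at 86.0 to 5186 among wild-type arrays and 263 to 3976 among mutant arrays (1.21 ± 1.12).

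Of 6 tested Smad and Smurf genes, 4 lay above 0 and 2 below. Smurf1, a ubiquitin ligase that marks Smad1 and Smad5 for degradation, read 2736, 1209, 2214, 1186 and 866 on wild-type arrays 1 to 5 and 799, 592, 546 and 638 on mutant arrays 1 to 4. All mutants lay below all wild-type arrays, and the log2 difference was -1.20 ± 0.43 (unadjusted p = 0.0173 and adjusted p = 0.696 in limma, exact permutation p = 0.0159). Smad5, a signal transducer of the pathway, read 12316 ± 1470 and 9026 ± 2729 (-0.46 ± 0.23, limma adjusted p = 0.786), with -0.47 and 0.41 at its other probe sets. The other Smurf1 probe set lay below the filter in both groups.

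Of 6 other tested BMP targets, 4 lay above 0 and 2 below, with a median of 0.36. Msx2, a homeobox gene switched on by BMP in many tissues, read 453, 226, 569, 136 and 338 on wild-type arrays 1 to 5 and 709, 883, 1513 and 1307 on mutant arrays 1 to 4, without overlap. Its log2 difference was 1.54 ± 0.53 with a 95% interval of 0.39 to 2.70 (unadjusted p = 0.0134 and adjusted p = 0.691 in limma, exact permutation p = 0.0238), and its dimmer probe set gave 0.42 ± 0.43. Gata2, a zinc finger factor, read 1466 ± 341 and 2345 ± 490 (0.65 ± 0.33, limma adjusted p = 0.785).

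**Figure D4:**
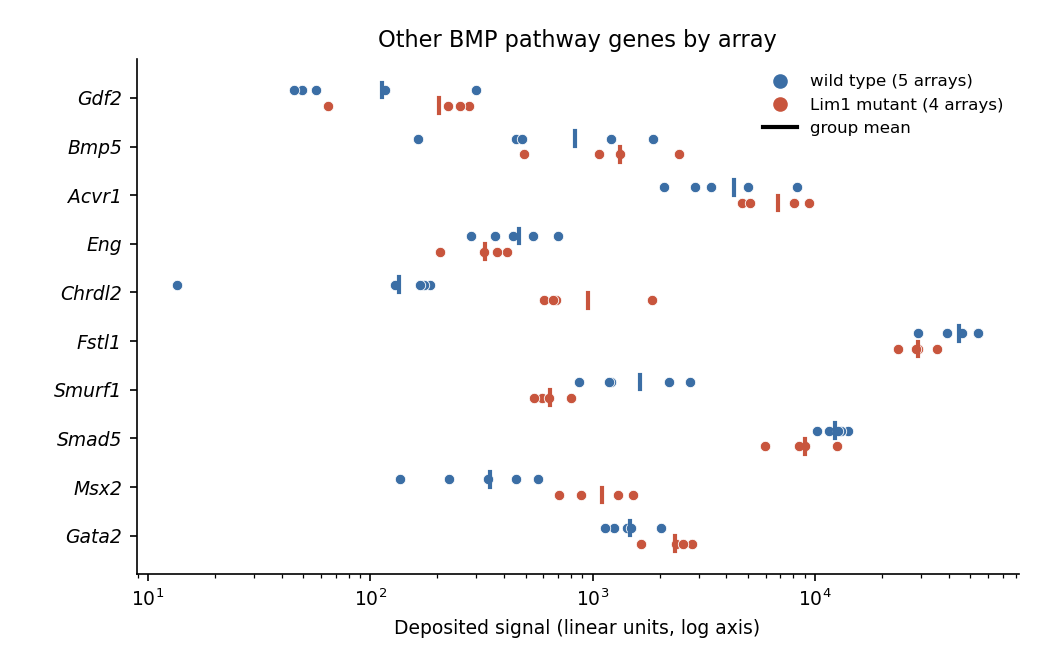
Deposited signal (log axis) on each array of the 2 genes with the lowest p in each of the 5 other pathway lists, wild-type arrays in blue, mutant arrays in red and group means as bars. Groups are apart for Chrdl2, Msx2 and Smurf1, where mutants lie above, above and below the wild type, and they touch or overlap for the other genes.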

How the data were processed

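RNA from captured vesicles was amplified in a 2-round kit and hybridised to Affymetrix arrays, 1 per sample, per the labels' protocols. The authors deposited 1 linear intensity per probe set, from the GCOS software per the submitters' processing notes; which algorithm it used, and its scaling target, are not given. The mean after trimming 2% at each end was 1500 on all 9 arrays. Values were transformed to log2(value + 42.4), the 25th percentile, which understates changes of dim probe sets, and quantile normalised. Probe sets at or above the 40th percentile of mean level were tested (27022 of 45101, controls left out) with limma 3.58.1 in R 4.3.3 (lmFit, eBayes with a trend, two-sided), group as the only term, Benjamini-Hochberg adjustment over all of them at 0.05. Log2 differences are given ± SE and signals as deposited, ± SD. Exact permutation tests, unadjusted, used all 126 splits. The number of arrays limits the precision. The fit was tested on simulated data.

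All member probe sets are given. Per pathway list, the 2 genes with the lowest p are named. Members, lists and tests were chosen with earlier results of these data known. Replicate numbers shared by the groups were checked for pairing: deviations of same-numbered arrays correlated at -0.11 to 0.05, so they were not taken as pairs. Alternatives covered normalisation, pseudocount, filter, variance trend, array weights, a replicate block and leaving out arrays.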

Additional observations from a re-analysis of the deposited data

Results flagged for a closer look

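Within 26 groups of values (the 13 tested probe sets in each genotype), 5 had a highest or lowest array well separated from the others (Dixon's 95% criterion). For normally distributed values, chance alone flags about 1 in 20 groups, or 1.3 here. The values were deposited linear signals, and the groups share arrays and genes, so 1.3 is a rough guide only. At the second Bmp7 probe set, mutant array 2 read 4257, against 1886 to 2257 on the other mutant arrays. The Smad6 signal of wild-type array 4 was 2682, against 722 to 1160 on the other wild-type arrays.

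The other 3 concerned Id2, each at a different probe set and on a different array. Wild-type array 1 read 5312 at the leading probe set, against 8056 to 8960 on the other wild-type arrays. Mutant array 4 read 1007 at the second, against 437 to 477, and mutant array 1 read 1175 at the third, against 169 to 241. No array stood apart for more than 1 of these values, and no cause was tested.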

How the results depend on the processing

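Under 18 alternatives, no member probe set passed the limma test, nor did any other BMP pathway gene at its leading probe set. The lowest limma adjusted p of a member was 0.479. The number of member probe sets with an unadjusted p under 0.05 ran from 2 to 5, and that of pathway genes from 5 to 7. Of 234 recomputed member differences, 230 kept their direction. The 4 that reversed were Bmp2 without wild-type replicate 2 (-0.12), without wild-type replicate 3 (-0.21) and without wild-type arrays 1 and 3 (-0.32), and the second Bmp7 probe set without mutant replicate 2 (-0.0064); the cause was not tested. Leaving out single replicates gave up to 0.63 for Bmp2 and 0.41 for that Bmp7 probe set. The replicate block, with the numbers shared by the groups, gave 0 member calls with 4 unadjusted p under 0.05, and over all probe sets it gave 0 calls against 9 without the block (1756 at an unadjusted p under 0.05). No wild-type array correlated best with the mutant array of its own number. Over the alternatives, the Bmper difference ranged from 0.79 to 1.16, that of Smad6 from 1.10 to 1.62, that of Bmp4 from 0.69 to 1.09, that of Bambi from 0.43 to 0.68 and that of Id2 from 0.33 to 0.57. Relative to their size, others moved more: Id3 from 0.08 to 0.60, Bmp7 from 0.09 to 0.45, Id1 from 0.30 to 0.62, Grem1 from 0.58 to 1.31, and the dimmer Id2 probe sets from 0.43 to 1.11 and from 0.70 to 1.53. With 4 and 5 arrays, a difference of 1 on the log2 scale at a typical standard error of 0.49 is hard to see.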
